A study of Homo sapiens with 6 samples.

Results

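The genes described here are 10 markers of endothelial cells, the cells that line blood vessels and the inner surface of the heart. They were chosen by symbol (PECAM1, CDH5, KDR, FLT1, TEK, TIE1, VWF, ESAM, EGFL7 and SOX18), and all 10 were found among the 38557 genes listed. They were measured by RNA sequencing in 6 libraries of cardiomyocytes derived from WTC11, a widely used human iPSC (induced pluripotent stem cell) line. Of these, 3 libraries came from cells kept in RPMI with the B27 supplement and 3 from cells kept in DMEM with added fatty acids, with replicates numbered 1 to 3 in each medium. All cells are labelled wild type and come from the single line, and the labels give neither the age of the cells nor the time in each medium. The 2 media are the only groups, and each difference below is that of the fatty acid medium relative to RPMI plus B27.

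Endothelial cells are defined by a few surface proteins that hold neighbouring cells together and by receptors that read growth signals. VEGF receptors (KDR, FLT1) drive and restrain vessel growth, and the TIE receptors (TEK, TIE1) keep vessels stable. KDR also marks the mesoderm from which heart muscle, vessel lining and blood arise, so a KDR transcript alone does not define an endothelial cell. Transcription factors of the ETS family bind promoters and enhancers of many of these genes at sites with the core GGAA.

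Much of the panel could not be read. Levels are given as CPM (a gene's counts relative to the total of its library, adjusted between libraries by TMM), and 5 of the 10 genes (KDR, FLT1, TEK, TIE1 and EGFL7) passed the filter on low counts while PECAM1, CDH5, VWF, ESAM and SOX18 did not. Of the members most used to identify endothelial cells, 3 were at or near 0, with at most 5 counts of PECAM1, 11 of CDH5 and 3 of VWF in any library. Of the readable genes, KDR was high and 2.79-fold higher in DMEM plus fatty acids at replicate 2 (1.94-fold at replicate 3 and 4.16-fold at replicate 1), while FLT1, EGFL7, TEK and TIE1 had lower levels there in each of the 3 replicate pairs. Of all tested genes, 23.9% were lower and 25.9% higher in all 3 pairs. No member passed the test over all genes in the fit that ignores replicate numbers, and KDR alone passed in the fit that includes them.

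Libraries held 23232324 to 31035389 gene counts, and 3 counts corresponded to 0.0888 to 0.129 CPM. Markers of cardiomyocytes were abundant in every library, with a summed level of 30365 to 37575 CPM over 12 genes in RPMI plus B27 and 24379 to 34179 CPM in DMEM plus fatty acids. No 2 libraries agreed within sampling noise (smallest chi-square per degree of freedom 31.5), and all 6 were used. In RNA from whole cultures, fewer cells of a type and less RNA per cell cannot be told apart.

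KDR and FLT1 encode the VEGF receptors whose levels lay on opposite sides of the media contrast, so the 250 bases upstream of their start sites are printed here. The sequences are from RefSeq (GRCh38.p14), 5′ to 3′ on the gene's own strand. Capitals mark every copy, on either strand, of the ETS core GGAA, the GC box GGGCGG that binds SP factors, and the hypoxia-factor cores ACGTG and GCGTG. Copies of a motif that touch or overlap run together in capitals.
KDR: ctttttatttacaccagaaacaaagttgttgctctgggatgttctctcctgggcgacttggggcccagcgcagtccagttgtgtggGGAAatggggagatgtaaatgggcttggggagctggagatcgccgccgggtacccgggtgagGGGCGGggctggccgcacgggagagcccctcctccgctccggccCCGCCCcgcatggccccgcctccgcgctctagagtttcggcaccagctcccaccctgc
FLT1: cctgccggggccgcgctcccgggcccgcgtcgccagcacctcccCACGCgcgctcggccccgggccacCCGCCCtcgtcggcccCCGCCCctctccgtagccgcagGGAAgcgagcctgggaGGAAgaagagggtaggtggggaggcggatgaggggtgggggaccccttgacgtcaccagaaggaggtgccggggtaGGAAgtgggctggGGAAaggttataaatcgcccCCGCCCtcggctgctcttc

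The KDR stretch is chr4:55125596-55125845 on the minus strand and holds 1 ETS core, 2 GC boxes and neither hypoxia core. The FLT1 stretch is chr13:28495129-28495378 on the minus strand, with the GENCODE 29 start of the gene just inside its end, and holds 4 ETS cores, 3 GC boxes and 1 copy of GCGTG. Among 35116 promoters of the same length, 92.7% hold GGAA, 42.6% GGGCGG, 18.5% ACGTG and 32.2% GCGTG on either strand. These matches describe the letters of each window only. Of the 10 members 5 had an entry in the promoter table, the others there being TEK, TIE1 and EGFL7.

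KDR encodes VEGFR2, the main signalling receptor for VEGF-A (gene at chr4:55078259-55125595, minus strand, GRCh38, GENCODE 29). Its level was 27.5, 142.9 and 238.7 CPM in RPMI plus B27 (replicates 1 to 3) and 114.4, 399.3 and 462.8 CPM in DMEM plus fatty acids. Replicate 1 was the low library of both media, and the media overlapped, since replicate 1 in DMEM plus fatty acids lay below replicates 2 and 3 in RPMI plus B27. The spread was 8.68-fold within RPMI plus B27 and 4.04-fold within DMEM plus fatty acids, against differences of 1.94-fold to 4.16-fold between libraries of the same number.

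The mean level of KDR was 136.4 ± 105.7 CPM in RPMI plus B27 and 325.5 ± 185.5 CPM in the fatty acid medium (SD, n = 3 each). Its fitted log2 fold change was 1.26 ± 0.76 (SE) with an adjusted p of 0.434 (edgeR quasi-likelihood test, Benjamini-Hochberg over 16107 genes). In the fit blocked by replicate number it rose by 1.49 ± 0.21 on the log2 scale with an adjusted p of 0.0245 by the same test, in 3 of 3 pairs. Over its 12 alternatives the adjusted p ran from 0.0245 to 0.665, and the block was the only one that called it. Leaving out RPMI plus B27 replicate 1 gave a log2 fold change of 0.77, and leaving out RPMI plus B27 replicate 3 gave 1.94, both without a call.

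**Figure D1:**
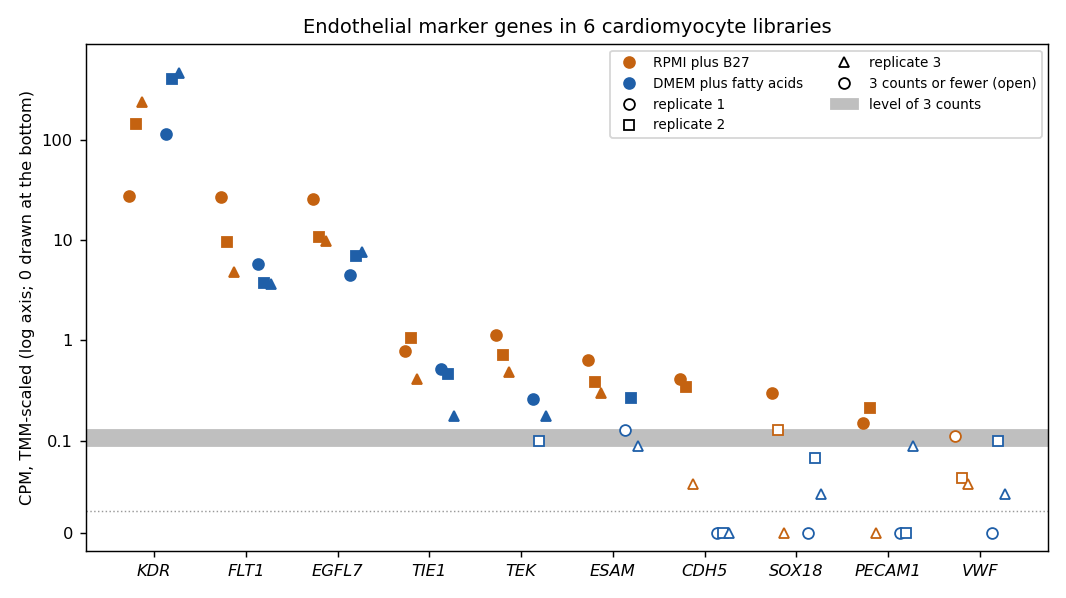
Level of each of the 10 genes in each library (CPM, TMM-scaled, log axis; counts of 0 are drawn below the dotted line), with colours for the media and shapes for replicate numbers; open symbols stand for 3 counts or fewer and the grey band is the level of 3 counts. KDR reaches 462.8 CPM, FLT1 and EGFL7 lie between 3.67 and 26.9 CPM, and VWF has no library above 3 counts.

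FLT1 encodes VEGFR1, which binds VEGF-A and PGF and, as a soluble form made from the same gene, acts as a decoy (chr13:28300344-28495145, minus strand). Counts per gene do not separate the soluble from the membrane form. Its level was 26.9, 9.48 and 4.84 CPM in RPMI plus B27 and 5.81, 3.74 and 3.67 CPM in DMEM plus fatty acids (replicates 1 to 3). RPMI plus B27 replicate 1 stood far above the other 5 libraries, and the media overlapped at RPMI plus B27 replicate 3. The mean was 13.8 ± 11.7 against 4.41 ± 1.21 CPM (SD, n = 3 each), with a log2 fold change of -1.65 ± 0.59 (SE) and an adjusted p of 0.213 by edgeR. The block gave -1.34 ± 0.35 and 0.0906. Without RPMI plus B27 replicate 1 the log2 fold change was -0.70. FLT1 was lower in DMEM plus fatty acids in 3 of 3 pairs.

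KDR and FLT1 can be set against each other within a library, where scaling cancels. FLT1 made up 49.5% of the FLT1 and KDR counts in RPMI plus B27 replicate 1 (95% Wilson interval 46.9% to 52.1%), 6.22% in replicate 2 (5.48% to 7.06%) and 1.99% in replicate 3 (1.68% to 2.36%). In DMEM plus fatty acids it made up 4.83% (4.10% to 5.69%), 0.929% (0.772% to 1.12%) and 0.787% (0.661% to 0.938%). The share was lower in DMEM plus fatty acids in 3 of 3 pairs, and the media overlapped. An exact two-sided permutation test on this share, chosen after its values were seen, gave p = 0.2, where 3 against 3 libraries cannot go below 0.1. That test took no account of replicate numbers. The intervals cover counting error only.

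EGFL7 encodes a secreted protein of the vessel wall (chr9:136658856-136672678, plus strand). An intron of the gene also holds MIR126, the source of the endothelial microRNA miR-126, whose mature arms are shown because their host is one of the few readable members. Capitals mark the seed, bases 2 to 8 (RefSeq, GRCh38.p14, chr9:136670616-136670636 and chr9:136670653-136670674, plus strand).
hsa-miR-126-5p: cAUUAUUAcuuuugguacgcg
hsa-miR-126-3p: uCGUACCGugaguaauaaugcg

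The MIR126 row held 0 counts over all 6 libraries. These are mRNA libraries, which do not measure mature microRNAs. EGFL7 itself stood at 25.4, 10.8 and 9.76 CPM in RPMI plus B27 and at 4.47, 6.88 and 7.61 CPM in DMEM plus fatty acids (replicates 1 to 3). The media did not overlap, and RPMI plus B27 replicate 1 was again the highest library. Its mean was 15.3 ± 8.78 against 6.32 ± 1.64 CPM (SD, n = 3 each), with a log2 fold change of -1.27 ± 0.41 (SE) and an edgeR adjusted p of 0.176. The block left this at -1.14 ± 0.43 and 0.178. Within pairs the levels differed 5.69-fold at replicate 1, 1.56-fold at replicate 2 and 1.28-fold at replicate 3, each time lower in DMEM plus fatty acids. Without RPMI plus B27 replicate 1 the log2 fold change was -0.69.

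**Figure D2:**
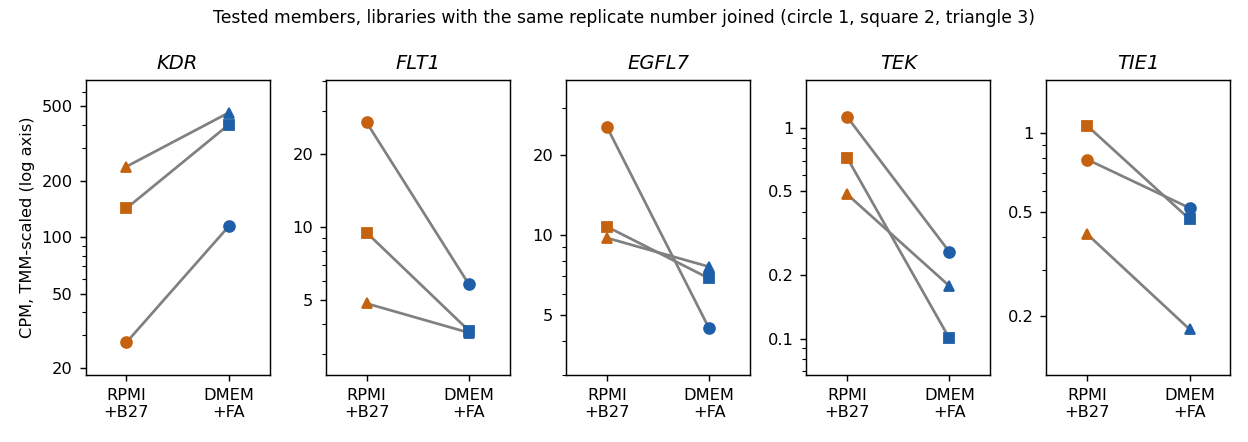
Level (CPM, TMM-scaled, log axis, a separate range for each gene) of the 5 tested genes in both media, with lines joining libraries of the same replicate number. All 3 KDR lines go up, from 27.5 to 114.4 CPM in the lowest pair, and all 12 lines of FLT1, EGFL7, TEK and TIE1 go down.

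TEK encodes TIE2, the receptor for angiopoietins (chr9:27109141-27230175, plus strand). It had 30, 17 and 13 counts in RPMI plus B27 and 6, 3 and 6 counts in DMEM plus fatty acids, or 1.13, 0.723 and 0.484 against 0.258, 0.1003 and 0.178 CPM. The media did not overlap, but TEK reached 10 counts in the 3 RPMI plus B27 libraries only, so it passed the filter through the medium in which it was higher. The log2 fold change was -2.13 ± 0.51 (SE) with an edgeR adjusted p of 0.0960. Blocking gave -2.07 ± 0.44 and 0.0569. Pooled over libraries, TEK was 4.52-fold higher in RPMI plus B27 (95% interval 2.53 to 8.57, counting error only).

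TIE1 encodes the partner receptor of TIE2 in angiopoietin signalling (chr1:43300993-43323108, plus strand). It had 21, 25 and 11 counts in RPMI plus B27 and 12, 14 and 6 counts in DMEM plus fatty acids. The levels were 0.790, 1.06 and 0.410 CPM against 0.516, 0.468 and 0.178 CPM, and the media overlapped at RPMI plus B27 replicate 3. The log2 fold change was -0.97 ± 0.53 (SE) with an edgeR adjusted p of 0.389, and -0.98 ± 0.37 with 0.180 under the block. Leaving out DMEM plus fatty acids replicate 3 gave -0.60 and leaving out RPMI plus B27 replicate 2 gave -0.65, again with no call. TIE1 was lower in DMEM plus fatty acids in 3 of 3 pairs.

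The adhesion genes were too low to read. PECAM1 (CD31, at endothelial cell contacts and on platelets and leukocytes, chr17:64319415-64413776, minus strand) had 4, 5 and 0 counts in RPMI plus B27 and 0, 0 and 3 in DMEM plus fatty acids. CDH5 (VE-cadherin, the cadherin of endothelial junctions, chr16:66366622-66404786, plus strand) had 11, 8 and 1 against 0, 0 and 0. ESAM (an adhesion molecule of endothelial cells and platelets, chr11:124752583-124762290, minus strand) had 17, 9 and 8 against 3, 8 and 3. CDH5 was therefore detected in RPMI plus B27 alone, with 19 of its 20 counts in replicates 1 and 2, and ESAM did not overlap between media only by the scaling of 2 libraries with 8 counts each.

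VWF (von Willebrand factor, stored and released by endothelial cells and platelets, chr12:5948874-6124770, minus strand) had 3, 1 and 1 counts in RPMI plus B27 and 0, 3 and 1 in DMEM plus fatty acids. SOX18 (an early endothelial transcription factor, chr20:64047582-64049641, minus strand) had 8, 3 and 0 against 0, 2 and 1. A count of 3 was the floor, and VWF lay at or under it in 6 of 6 libraries, SOX18 in 5, PECAM1 and CDH5 in 4 each and ESAM in 2.

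Pooled over the 3 libraries of a medium, CDH5 had 0 counts in DMEM plus fatty acids. With that group set at 3 counts, CDH5 was 7.53-fold higher in RPMI plus B27, which is not a lower limit. The exact two-sided 95% interval of its ratio of DMEM plus fatty acids to RPMI plus B27 reached 0.179, which allows a smaller difference. The pooled ratio of RPMI plus B27 to DMEM plus fatty acids was 2.74 for ESAM (95% exact interval 1.43 to 5.54), 4.14 for SOX18 (1.09 to 23.1), 3.39 for PECAM1 (0.846 to 19.5) and 1.41 for VWF (0.304 to 7.12). These intervals cover counting error and not the spread between libraries, and those of PECAM1 and VWF include equal levels. With no filter on low counts, the edgeR adjusted p of the 5 genes ran from 0.0969 for CDH5 to 0.877 for VWF, and none passed, while 2.0% of the genes in that fit did.

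Levels of different genes were compared per kilobase of annotated exon (CPM per kb, union of GENCODE 29 exons). In DMEM plus fatty acids the order was KDR (49.6 ± 28.3), EGFL7 (2.48 ± 0.64), FLT1 (0.351 ± 0.0965), TIE1 (0.0579 ± 0.0274), ESAM (0.0554 ± 0.0321) and TEK (0.0372 ± 0.0164), each as mean ± SD of 3 libraries. SOX18, VWF and PECAM1 followed at 0.0172, 0.00417 and 0.00382, and CDH5 was at 0. KDR, EGFL7 and FLT1 did not overlap each other there, while TIE1, ESAM and TEK did.

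In RPMI plus B27 the order began with KDR (20.8 ± 16.1 CPM per kb), EGFL7 (6.00 ± 3.44) and FLT1 (1.09 ± 0.93), followed by TEK (0.162 ± 0.0678), ESAM (0.151 ± 0.0610) and TIE1 (0.113 ± 0.0490). KDR and EGFL7 did not differ beyond their spread, because EGFL7 led in replicate 1 (9.97 against 4.19 CPM per kb for KDR) and KDR led in replicates 2 and 3. KDR stood above FLT1 per kilobase in every library, by 1.95-fold in RPMI plus B27 replicate 1 and by 241.3-fold in DMEM plus fatty acids replicate 3. TEK, ESAM and TIE1 overlapped again.

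Because of these levels, a sum over the panel follows KDR. KDR made up 33.0% of all member counts in RPMI plus B27 replicate 1, 86.1% and 93.8% in replicates 2 and 3, and 91.1%, 97.2% and 97.5% in DMEM plus fatty acids. The sum of the 10 genes was 83.4, 166.0 and 254.5 CPM in RPMI plus B27 and 125.6, 411.0 and 474.7 CPM in DMEM plus fatty acids. Without KDR the other 9 summed to 55.9, 23.1 and 15.9 CPM against 11.2, 11.6 and 11.9 CPM. With KDR the 2 highest sums were in the fatty acid medium and the media overlapped. Without KDR all 3 libraries of that medium lay below all 3 of RPMI plus B27, as did 12.8% of all tested genes taken singly. KDR was set aside after its values were seen, and it was the only tested member that was higher in that medium. FLT1 and EGFL7 made up most of the remaining sum, so the direction of that sum is no separate result.

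Of the 5 members tested, 0 passed at an adjusted p under 0.05 (edgeR quasi-likelihood test), where 1.36% of all 16107 tested genes passed. At an unadjusted p under 0.05 there were 3 of 5 (FLT1, TEK and EGFL7), against 17.7% of all tested genes. The DESeq2 Wald test called these 3 genes (adjusted p 0.0458, 0.0471 and 0.0343) and 7.71% of all genes it adjusted (5.24% lower). In the blocked fit the count was 1 of 5 (KDR, higher), against 4.78% of all tested genes in either direction and 1.36% higher. The other settings called 0 members. Among all genes they called 1.35% with RLE size factors, 1.25% with scaling by total counts and 0.821% among genes with 10 counts or more throughout. Leaving out replicates 1, 2 and 3 of RPMI plus B27 in turn called 0.183%, 0.0242% and 0.79% of genes, and leaving out those of DMEM plus fatty acids 0.0665%, 0.0725% and 0.0182%. Of the 5, 2 (TEK and EGFL7) did not overlap between media, both lower in DMEM plus fatty acids, against 12.8% of all tested genes in that direction. TEK was tested only through its RPMI plus B27 counts, which favours a lower value in the other medium, so counts and medians that include it describe the genes that passed and no more.

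The median log2 fold change of the 5 tested members was -1.27, beside 0.01 for all tested genes. Without RPMI plus B27 replicate 1 it was -0.70. One library stood out in this panel. RPMI plus B27 replicate 1 held the highest level of 3 of the 5 tested members (FLT1, TEK and EGFL7), while it was the highest library for 27.6% of all tested genes. Of all 10 members it was highest for 7, but CDH5, ESAM, SOX18 and VWF among them were too low to read, with VWF at 3 counts. The same library also held the lowest level of KDR.

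**Figure D3:**
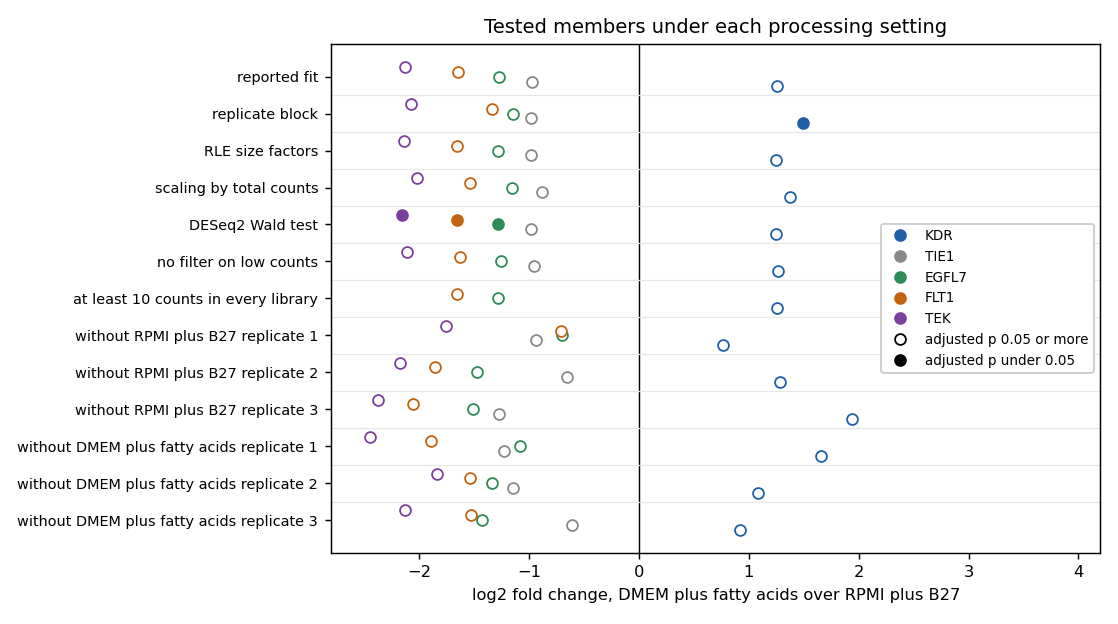
Log2 fold change of the 5 tested genes under the reported fit and each alternative setting; filled symbols have an adjusted p under 0.05, and TEK and TIE1 are missing where the filter removed them. KDR stays above 0 and the other 4 below 0 in all settings shown, and filled symbols appear only for KDR with the replicate block and for FLT1, TEK and EGFL7 with DESeq2.

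Ligands of the receptors showed no common direction. Of 11 ligand genes 8 were tested, 4 lower and 4 higher (median log2 fold change -0.11), 0 passed by edgeR, 1 had an unadjusted p under 0.05 and DESeq2 called 1, in both cases APLN. For this and each list below, 49.0% of all tested genes were lower and 17.7% had an unadjusted p under 0.05. DESeq2 called 7.71% of the genes it adjusted. APLN, the ligand apelin, had 2.94, 2.42 and 0.745 CPM in RPMI plus B27 and 0, 0.2005 and 0.267 CPM in DMEM plus fatty acids (log2 fold change -3.58 ± 0.83, SE, edgeR adjusted p 0.0899). Like TEK, it reached 10 counts in RPMI plus B27 libraries only. VEGFA, the ligand of KDR and FLT1, had 765.1, 347.7 and 207.1 CPM against 489.25, 287.8 and 294.6 CPM, with replicate 1 the highest library of each medium. With the block, EFNB2 (ephrin B2, an arterial ligand) fell by 0.56 on the log2 scale (adjusted p 0.0369, edgeR), as the only ligand called.

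Among 14 further receptors and co-receptors 11 were tested, 10 lower and 1 higher (median -0.53). None passed by edgeR with or without the block, 3 had an unadjusted p under 0.05, and DESeq2 called 2 (ENG and PTPRB). PTPRB, the phosphatase VE-PTP that acts on TIE2 and VE-cadherin, had 1.73, 0.850 and 0.633 CPM in RPMI plus B27 and 0.0860, 0.0334 and 0.267 CPM in DMEM plus fatty acids (log2 fold change -2.96 ± 0.70, SE, edgeR adjusted p 0.0955), and it too reached 10 counts in RPMI plus B27 only. ENG (endoglin, a co-receptor for TGF-beta ligands), named after its values were seen, had 25.2, 12.1 and 7.64 against 3.92, 5.21 and 3.41 CPM. The media did not overlap for either gene. NRP1, the VEGF co-receptor neuropilin 1, stood at 249.2 to 373.5 CPM over all 6 libraries and overlapped between media.

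Of 20 endothelial transcription factors 14 were tested, 10 lower and 4 higher (median -0.47). None passed by edgeR with or without the block, 3 had an unadjusted p under 0.05, and DESeq2 called MEF2C. MEF2C, which also works in heart muscle, had a mean of 94.0 ± 2.13 CPM in RPMI plus B27 and 123.45 ± 8.75 CPM in the fatty acid medium (SD, n = 3 each; log2 fold change 0.39 ± 0.10, SE, edgeR adjusted p 0.123). ERG, the ETS factor most restricted to endothelial cells, was too low to test, with 8, 2 and 1 counts in RPMI plus B27 and 0, 0 and 0 in DMEM plus fatty acids.

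Surface, junction and secreted genes of endothelial cells held 4 calls among 17 tested of 30, of which 13 were lower and 4 higher (median -0.18). Of all tested genes 1.07% were called lower and 0.292% higher. At an unadjusted p under 0.05 there were 8, against 17.7% of all tested genes, and DESeq2 called 7, against 7.71% of the genes it adjusted. EDN1 (endothelin 1, a vasoconstrictor peptide) fell from 18.9 ± 9.96 to 1.34 ± 0.382 CPM (SD, n = 3 each), a log2 fold change of -3.82 ± 0.44 (SE) with an edgeR adjusted p of 0.0252. THBD (thrombomodulin, a cofactor of thrombin) fell from 10.3 ± 4.79 to 1.28 ± 0.523 CPM (-3.01 ± 0.47, adjusted p 0.0402, edgeR). AQP1 (the water channel aquaporin 1) fell from 266.7 ± 78.5 to 82.6 ± 16.6 CPM (-1.69 ± 0.25, adjusted p 0.0386, edgeR). CALCRL (the receptor for CGRP and adrenomedullin) rose from 2.21 ± 0.524 to 6.98 ± 0.695 CPM (1.66 ± 0.26, adjusted p 0.0402, edgeR).

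These 4 genes did not overlap between media, but all 4 are also made by cells other than endothelium. Each lost its call in 4 to 6 of its 12 alternatives, with adjusted p values up to 0.132. Several more restricted genes of the same list were too low to test. Most untested genes of the list that had counts had a lower mean in DMEM plus fatty acids, but CLDN5 did not. CLDN5 (claudin 5, of endothelial tight junctions) had at most 9 counts in any library (mean 0.144 against 0.162 CPM), and CLEC14A had 0 in all 6. CD93, ESM1 and PLVAP had 42, 38 and 25 counts in RPMI plus B27 replicate 1 and at most 1 count in any DMEM plus fatty acids library. With the block EMCN (endomucin) joined the 4, at 7.79, 1.32 and 1.23 against 0.301, 0.234 and 0.0296 CPM (adjusted p 0.0237, edgeR). EMCN also passed the filter through RPMI plus B27 only. RPMI plus B27 replicate 1 was again the highest.

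**Figure D4:**
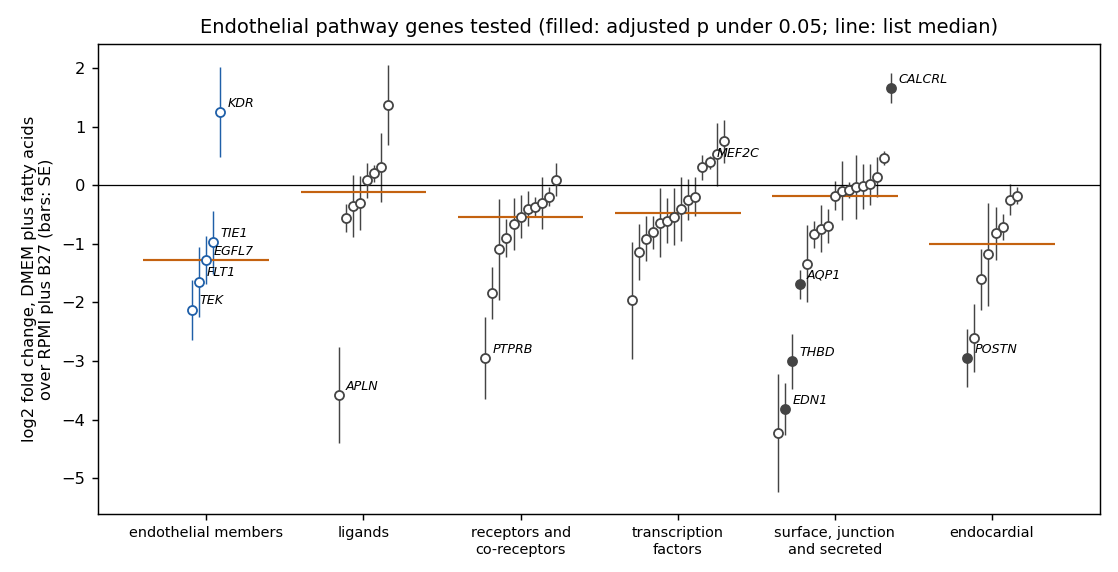
Log2 fold change with SE of every tested gene in the endothelial panel (blue) and in 5 further lists; filled symbols have an edgeR adjusted p under 0.05, the line is the median of the list, and labels name the genes of the panel and those chosen by rule. The 5 filled symbols are EDN1, THBD, AQP1, POSTN and CALCRL, and none belongs to the panel.

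The endocardial list names genes of the inner lining of the heart, not all of them restricted to it. Of its 9 genes 8 were tested and 8 were lower (median -1.0), where 49.0% of all tested genes were lower. By edgeR 1 passed, POSTN (log2 fold change -2.95 ± 0.50, SE, adjusted p 0.0446), against 1.07% of all tested genes called lower. POSTN (periostin, a matrix protein) is also on the fibroblast list, and it lost its call in 6 of 12 alternatives. With the block CDH11 (a mesenchymal cadherin) and HAPLN1 (a matrix link protein) passed as well, both lower.

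Markers of some other cell types also differed between the media. The 15 fibroblast and stromal markers summed to 7334 to 15248 CPM in RPMI plus B27 and to 1187 to 2880 CPM in DMEM plus fatty acids, with 7 of 14 tested called lower, among them COL1A1, DCN, FBN1 and LOX, against 1.07% of all tested genes called lower. Each of these 4 lost its call in 4 to 6 alternatives, mostly with a library left out. Smooth muscle and pericyte markers summed to 2113 to 2648 against 681 to 1648 CPM (1 of 12 called, LMOD1, and 4 with the block). Epicardial markers summed to 1973 to 2398 against 884 to 1098 CPM (1 of 7 called, KRT8, and 4 with the block). All these calls were lower in the fatty acid medium, where 1.07% of all tested genes were called lower, and the block called 4.78% of them in either direction. LMOD1 and KRT8 each lost the call with any 1 of the 6 libraries left out. Most of the epicardial sum came from keratins, with KRT8, KRT18 and KRT19 at 1063.8, 615.1 and 280.5 CPM in RPMI plus B27 replicate 1. The epicardial markers WT1, UPK3B and MSLN were too low to test, with at most 23, 11 and 3 counts in any library. The 7 tested epicardial markers were all lower in DMEM plus fatty acids, against 49.0% of all tested genes. Among them TBX18 had 7.72, 3.10 and 4.10 against 1.12, 0.802 and 1.36 CPM. Its edgeR adjusted p was 0.0605, and 0.0271 with the block. RPMI plus B27 replicate 1, the highest library for FLT1, EGFL7 and TEK, also had the highest fibroblast sum. The part of these cell types in the levels of the endothelial members was not tested.

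Platelets also make PECAM1, VWF and ESAM. Blood and platelet markers summed to 27.2 to 68.8 CPM in RPMI plus B27 and 13.7 to 21.0 CPM in DMEM plus fatty acids. ITGB3 made up most of this sum in every library, with 57.3 of 68.8 CPM in RPMI plus B27 replicate 1. Of these 14 markers, GP9, HBG1 and HBG2 were at 0 and PTPRC had a single count over all 6 libraries. The platelet gene GP1BA had 44 to 70 counts in every library, and ITGA2B had 109, 17 and 2 counts in RPMI plus B27 against 10, 7 and 18. Their part in the members' levels was not tested. Of 5 tested none passed by edgeR, 2 had an unadjusted p under 0.05 and DESeq2 called 2. ITGB3 (integrin beta 3, with the smallest p) had a log2 fold change of -1.48 ± 0.38 (SE, edgeR adjusted p 0.113, and 0.0148 with the block). Hepatic and foregut markers summed to 23.6 to 148.8 against 16.7 to 55.4 CPM, neural to 1022 to 1348 against 429.7 to 1080 CPM and pluripotent to 8.42 to 15.8 against 6.75 to 16.0 CPM. NES made up nearly all of the neural sum, at 996.4 to 1328 against 416.3 to 1058.6 CPM. The neural markers SOX2 and SOX10 were too low to test, with at most 10 and 2 counts in any library. None of the genes tested in these 3 lists passed by edgeR or DESeq2, and 1, the neural gene DCX, had an unadjusted p under 0.05 (log2 fold change 1.60 ± 0.63, SE), having reached 10 counts in DMEM plus fatty acids only. With the block the hepatic gene AFP was called lower (adjusted p 0.0255, edgeR, and 0.339 without the block). AFP had 0, 298 and 1685 counts in RPMI plus B27 against 2, 9 and 164, so it was not lower at replicate 1 and the media overlapped. Without RPMI plus B27 replicate 3 its log2 fold change was -1.82, beside -3.80 in the reported fit. DPPA4, with the smallest p of the pluripotent list, had a log2 fold change of -0.82 ± 0.40 (SE, adjusted p 0.335, edgeR). Of 12 cardiomyocyte markers none passed by edgeR, 3 had an unadjusted p under 0.05, DESeq2 called 3 (ACTN2, MYH6 and MYH7), and ACTN2 had the smallest p (log2 fold change -1.0 ± 0.30, SE, adjusted p 0.155). With the block ACTN2 and MYH7 were called lower (adjusted p 0.0494 and 0.0359, edgeR).

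**Figure D5:**
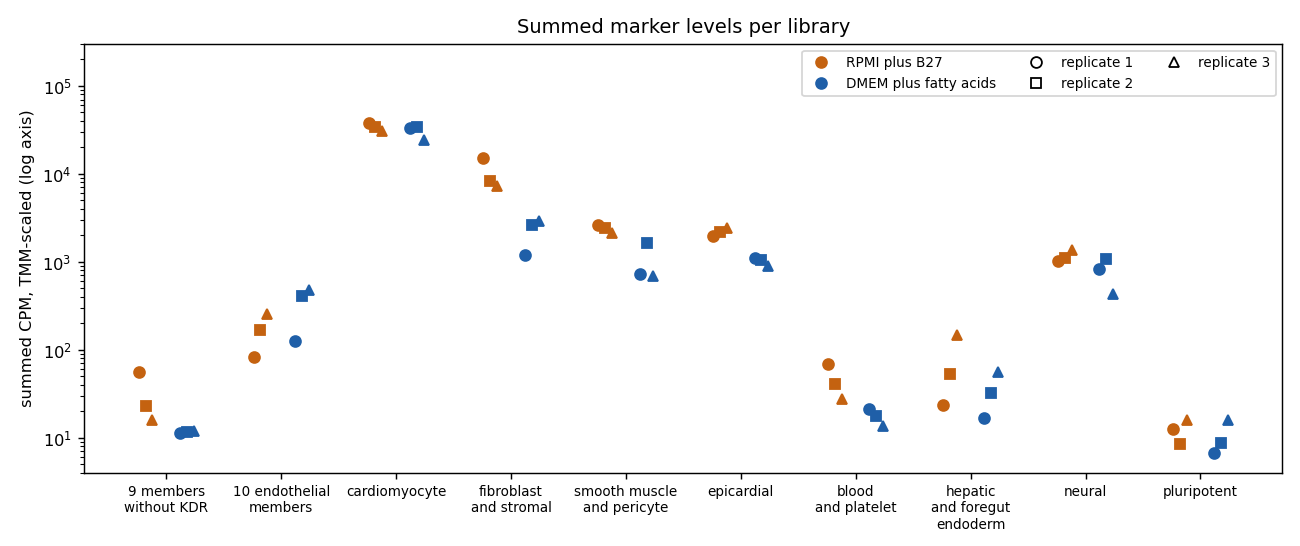
Summed level per library (CPM, TMM-scaled, log axis) of the endothelial members with and without KDR and of 8 marker lists of other cell types; colours are media and shapes replicate numbers. Without KDR the panel lies between 11.2 and 55.9 CPM, and the fibroblast sum drops from 7334 CPM or more to 2880 CPM or less between the media.

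The genes whose pattern was most like the mean of the 5 tested members over the 6 libraries (Pearson's r of log2 CPM, among 14081 genes) were SCG2, TMEM134, ASPH, EMC2, IL1R1 and SAMD14, with r of 0.990 to 0.996. The first of these, SCG2 (secretogranin II), had a mean of 4.29 CPM in RPMI plus B27 and 0.187 CPM in DMEM plus fatty acids. This mean profile joins KDR with 4 genes of the opposite direction, so each readable member was also compared alone, a choice made after its values were seen. KDR was most like VTI1B (0.998), and PLPPR4 was also close (0.996). FLT1 was most like RPL5 (0.998), ZNF160 (0.996) and PPP1R1B (0.996), and EGFL7 most like LASP1 (0.996), KRBA1 (0.994) and FMNL3 (0.994). With 6 libraries that share the media and the replicate numbers, 181 to 212 genes reached an r of 0.95 or more with each of these profiles.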

How the data were processed

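Libraries from 6 cultures were prepared for sequencing with a kit that keeps strand and selects mRNA (labels' protocols). The authors deposited unnormalised read counts for each gene symbol, made with STAR and HTSeq on hg38, per the submitters' processing notes. Versions, gene annotation and strand setting are not given in the sources used here. Summary rows that name no gene were left out, and gene rows held 84.4% to 87.2% of each library.

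Counts were tested with edgeR 4.0.16 (R 4.3.3): filterByExpr (minimum count 10, total 15), TMM, quasi-likelihood test over all 6 libraries without covariates, Benjamini-Hochberg over 16107 genes, threshold 0.05. SE are those implied by the F statistic. Genes failing the filter were called too low to test. Alternatives included DESeq2 1.42.0, other scalings and filters, and each library left out. The edgeR fit without the block was tested on simulated data.

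Replicate numbers come from the titles. Deviations from the medium mean correlated at 0.31, 0.43 and 0.37 for libraries with the same number and at -0.24 to -0.14 otherwise. The deviations of a medium sum to 0 for each gene, so the negative values follow from the positive ones and add no evidence. Same-numbered libraries were taken as pairs because of the positive values. What a number stands for is not stated. If replicates are not separate differentiations, p-values measure only the spread between these samples.

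Members and lists were chosen with earlier results of these data known. Named genes are all members and, per list, the called genes (up to 4 by smallest p) or else the gene with the smallest p. VEGFA, EFNB2, ENG, NRP1, ERG, CLDN5, CLEC14A, EMCN, CDH11, HAPLN1, MYH6, MYH7, PTPRC, GP9, HBG1, HBG2, GP1BA and ITGA2B were named outside this rule after their values were seen. So were CD93, ESM1, PLVAP, KRT18, KRT19, WT1, UPK3B, MSLN, TBX18, NES, SOX2 and SOX10. Coordinates and exon lengths are from GENCODE 29 (GRCh38), and none of the members' exons overlap those of another gene there. VWF has a partial pseudogene, and reads aligned to more than 1 place were not counted. One gene with a profile close to that of KDR is not reported here.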

Additional observations from a re-analysis of the deposited data

How the results depend on the processing

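The number of genes called was 219 in the reported fit, 770 with the replicate block, 1218 by DESeq2, 539 with no filter on low counts and 119 when each library had to reach 10 counts. Scaling by total counts called 74 higher and 128 lower, beside 47 and 172 in the reported fit. Leaving out 1 library gave 3 to 131 genes (30, 4 and 131 without RPMI plus B27 replicates 1, 2 and 3, and 11, 12 and 3 without those of DMEM plus fatty acids). The count of endothelial members called was 0 in the reported fit, 1 with the replicate block (KDR) and 3 by DESeq2 (FLT1, TEK and EGFL7), and 0 under each other scaling, filter and left-out library. The median log2 fold change of the tested members was -1.27 in the reported fit and ran from -1.58 to -0.70 under the alternatives. Each move was less than the spread between replicate pairs, a wide measure (SD 0.87 over 3 pairs). The alternatives tested 3 to 10 members, depending on the filter and the library left out. No named gene changed direction in the 279 results of 24 genes under alternatives, of which 206 kept their side of the threshold, 58 lost a call and 15 gained one. Scaling by total counts moved the median of all genes from 0.01 to 0.12 on the log2 scale and no member to the other side of 0. In the reported fit 5 of 10 members were under the filter, and ESAM passed it in 4 of the settings with a library left out. A level of 0.0888 to 0.129 CPM, which is 3 counts, cannot be told from 0. The block changed no call of another member.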
